A study of Mus musculus with 49 samples.

Results

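The 49 mice of this neocortical RNAseq experiment were divided by a single transcript, Fam205a3 on chromosome 4. Its level was computed as CPM, that is 1000000 × the gene's count over the total count of the mouse. The 13 mice under 3 CPM form the low side and the 36 mice at 3 CPM or more form the high side, out of 49 mice in all. The sides were chosen by Fam205a3 itself, so its values are given as a description and were not tested. Differences are given throughout as high side minus low side on the log2 scale, from counts fitted with the transgene genotype as a covariate.

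All mice had the mixed C57BL/6J x C3H/HeJ background, in which each animal inherits stretches of chromosome from either strain. Neighbouring genes on such a stretch travel together, so that strain differences in expression appear as groups of genes that vary together from mouse to mouse. The stretch around Fam205a3 is built of repeated copies in the C57BL/6J reference genome. It holds copies of Fam205a, an uncharacterised protein-coding family, and of the chemokines Ccl27 and Ccl21, together with the receptor gene Il11ra. CCL27 attracts skin-homing T cells and CCL21 guides lymphocytes and dendritic cells into lymph nodes. Which strain a mouse carried at this position was not determined from the files.

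The bigenic rNLS8 mice carry NEFH-tTA, which drives expression in neurons from the promoter of the human neurofilament heavy chain gene, and tetO-hTDP-43ΔNLS, a human TDP-43 that lacks the signal for nuclear import. Doxycycline in the chow kept the transgene off until 25.5 weeks of age, and all mice were killed 3 weeks later, at 28.5 weeks. The first vaccination was at 8 weeks. The 17 ctrl PBS mice were monogenic littermates given PBS, and the labels do not say which of the transgenes they carried. The bigenic mice were 10 TDP-PBS mice given PBS, 10 TDP10 + 12 mice given peptides 10 and 12 and 12 TDP15 mice given peptide 15. The labels give a dose of 40 µg of peptide. According to the paper this was the amount of antigen at each immunization, repeated in monthly boosters, and the peptides were coupled to ovalbumin. RNA came from about 30 mg of neocortex of 1 animal per library. Total counts lay between 18346385 and 20866314 on the low side and between 17775738 and 21033608 on the high side. A floor of 3 counts corresponded to 0.143 to 0.169 CPM. Over the 12 cortical neuron markers the summed level was 4689 to 6311 CPM on the low side and 4720 to 6680 CPM on the high side. Libraries with much choroid plexus RNA occurred on both sides, where the sum of its 6 markers reached 1648 CPM and 1717 CPM against medians of 34.3 and 36.4 CPM.

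The copies in this stretch are so alike that reads can fit several of them. Of Fam205a3 and the 49 genes that differed between the sides, 24 of 50 were found in the GENCODE transcripts of the same build. Of all 100-base windows in the transcripts of Fam205a3, 100% occur letter for letter in Fam205a2 as well, 100% in Fam205a4 and 51.9% in Fam205a1. The shares were 100% for Gm10591 and Ccl21b, 97.9% for Ccl27b, 63.5% for Gm13306 and 26.5% for Ccl27a, in each case with any other gene. In Alad, Hdhd3, Tmem245, Frrs1l, Lingo2 and 1110017D15Rik it was 0%. The values of the copies below are therefore uncertain as to which copy gave the reads.

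RefSeq start sites on GRCm38.p6 were found for 19 of the 50 genes. The 250 bases before the start are printed for the transcript that divides the mice and for the chemokine copies whose levels differed from each other. Several starts are annotated for Ccl27a and Gm13306, of which 1 is shown. Fam205a3 lies on the plus strand, at chr4:42294275-42294524. The next pair, Ccl27a (minus strand, chr4:41774177-41774426) and Gm21953 (plus strand, chr4:42293614-42293863), aligned over 242 bases with 239 identical, and capitals mark the letters that differ between them or face a gap. Gm21953 was identical to Gm20878 over all 250 bases. The upstream bases of Gm13306 (plus strand, chr4:42153195-42153444) were identical to those of Ccl27b at the start compared. More than 1 start is annotated for Ccl27b as well, and its other starts were not compared. The last pair, Gm13304 (plus strand, chr4:42114537-42114786, identical to Gm10591) and Ccl21d (plus strand, chr4:41903363-41903612), differed in 1 of 250 bases, in capitals.
Fam205a3: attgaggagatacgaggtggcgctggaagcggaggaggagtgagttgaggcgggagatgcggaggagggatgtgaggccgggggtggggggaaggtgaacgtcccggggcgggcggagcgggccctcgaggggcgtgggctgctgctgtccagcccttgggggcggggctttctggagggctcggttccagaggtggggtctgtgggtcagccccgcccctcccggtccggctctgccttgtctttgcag
Ccl27a: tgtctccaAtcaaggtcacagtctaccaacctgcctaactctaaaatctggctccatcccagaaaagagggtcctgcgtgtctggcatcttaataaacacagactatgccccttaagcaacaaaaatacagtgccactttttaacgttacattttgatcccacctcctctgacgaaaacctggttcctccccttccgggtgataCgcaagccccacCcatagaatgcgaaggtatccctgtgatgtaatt
Gm21953: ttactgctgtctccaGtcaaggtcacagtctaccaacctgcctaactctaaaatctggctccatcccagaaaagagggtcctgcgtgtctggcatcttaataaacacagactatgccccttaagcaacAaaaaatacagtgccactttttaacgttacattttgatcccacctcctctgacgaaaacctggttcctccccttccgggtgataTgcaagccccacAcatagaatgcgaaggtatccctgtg
Gm13306: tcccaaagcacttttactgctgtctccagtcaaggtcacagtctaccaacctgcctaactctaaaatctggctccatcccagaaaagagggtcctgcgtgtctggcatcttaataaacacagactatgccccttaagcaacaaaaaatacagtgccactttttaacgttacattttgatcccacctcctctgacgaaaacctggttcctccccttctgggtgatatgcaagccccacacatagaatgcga
Gm13304: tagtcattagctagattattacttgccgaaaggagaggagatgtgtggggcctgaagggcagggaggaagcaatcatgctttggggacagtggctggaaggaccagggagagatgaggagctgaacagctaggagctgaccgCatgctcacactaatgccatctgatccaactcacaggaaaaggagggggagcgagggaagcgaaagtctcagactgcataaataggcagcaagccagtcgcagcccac
Ccl21d: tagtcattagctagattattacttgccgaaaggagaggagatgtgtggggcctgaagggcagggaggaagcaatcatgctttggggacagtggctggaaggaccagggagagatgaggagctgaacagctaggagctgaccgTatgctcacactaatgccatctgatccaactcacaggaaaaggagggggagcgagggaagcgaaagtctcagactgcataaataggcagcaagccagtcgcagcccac

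Fam205a3 (chromosome 4, 42294525 to 42324072) was near absent in the low side and well counted in the high side. In the 7 monogenic low mice it ranged from 0 to 0.511 CPM with a median of 0.105, and in the 6 bigenic low mice from 0.0493 to 0.451 CPM with a median of 0.175. The 10 monogenic high mice lay between 19.3 and 28.6 CPM with a median of 25.7. The 26 bigenic high mice were more spread, from 9.38 to 37.0 CPM with a median of 19.4. No mouse fell between 0.511 CPM, the highest of the low side, and 9.38 CPM, the lowest of the high side, so a threshold of 1.5 or 6 CPM gave the same sides as 3 CPM.

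**Figure D1:**
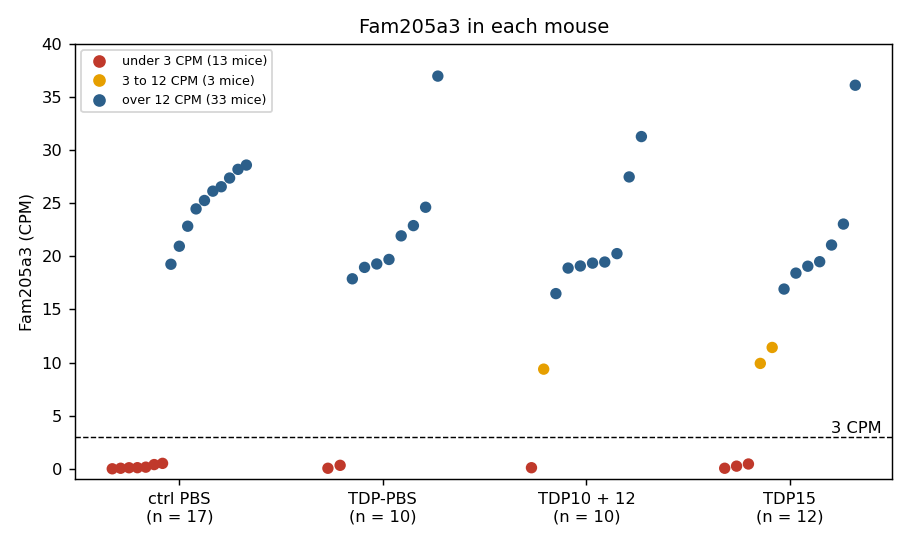
Fam205a3 in CPM (vertical axis) for each of the 49 mice, by study group. Every point is 1 mouse, the dashed line is the threshold of 3 CPM, and colours mark the 13 mice under 3 CPM, the 3 mice between 3 and 12 CPM and the 33 mice above, which start at 16.5 CPM.

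Both sides occurred in every study group. The low side held 7 of 17 ctrl PBS mice, 2 of 10 TDP-PBS mice, 1 of 10 TDP10 + 12 mice and 3 of 12 TDP15 mice. By genotype these were 41.2% of the monogenic and 18.8% of the bigenic mice, and by sex 8 of 25 females and 5 of 24 males. Side did not differ detectably with group (Fisher's exact test, two-sided, p = 0.387, adjusted p = 0.52 over 3 tests), genotype (p = 0.172, adjusted p = 0.517) or sex (p = 0.52, adjusted p = 0.52). Tests on 13 low mice leave room for a sizeable imbalance, and the genotype was kept in every fit.

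The other copies of Fam205a followed the same division. Fam205a2 had 0 to 0.511 CPM in the low side and 16.1 to 26.3 CPM in monogenic high mice, with 7.39 to 30.2 CPM in bigenic high mice. Fam205a4 had 0 to 0.46 CPM against 16.8 to 26.1 and 8.65 to 34.0 CPM. In Fam205a1, which shares fewer windows, the low side kept 0.0978 to 1.38 CPM and the high side had 2.58 to 9.96 CPM. The sides did not overlap for any of these 3 copies, where 0.11% of all genes tested showed no overlap, and their log2 differences were 6.51, 6.77 and 3.27. Since they share sequence with the gene that chose the sides, these are descriptions without a test. Fam205c had at most 0.102 CPM in the low side and was not tested.

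Apart from Fam205a3, 18219 genes were tested and 49 of them, or 0.269%, differed between the sides with an adjusted p under 0.05 (quasi-likelihood F-test of edgeR, Benjamini-Hochberg adjusted). Of these, 45 were higher in the high side (0.247% of genes tested) and 4 were lower (0.022%). These counts hold Fam205a1, Fam205a2 and Fam205a4, and without them 46 of 18216 genes (0.253%) were called, 42 higher and 4 lower. Without a filter on low counts 51 genes were higher and 25 lower. They were not spread evenly over the genome. Within 5 Mb of the start of Fam205a3, 27 of 144 tested genes were called, 24 higher and 3 lower, or 24 of 141 without the Fam205a copies. All 27 lay within 0.79 Mb. Single distances are given below from the start of Fam205a3, negative toward lower coordinates. From 5 to 20 Mb away 3 of 114 genes were called, all higher, and beyond 20 Mb on chromosome 4 there was 1 of 919, which was lower. On other chromosomes 1 of 17010 genes was called, and without the filter 23, of which 1 was higher and 22 were lower. A further 17 of 27 tested genes that RefSeq assigns to chromosome 4 with starts below 3 Mb were higher. The first gene of the assembled chromosome in GENCODE starts at 3051714, so these starts were taken as coordinates of separate scaffolds and no distance could be given. In neocortical tissue as a whole, fewer cells that express a gene and less RNA per cell cannot be told apart.

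**Figure D2:**
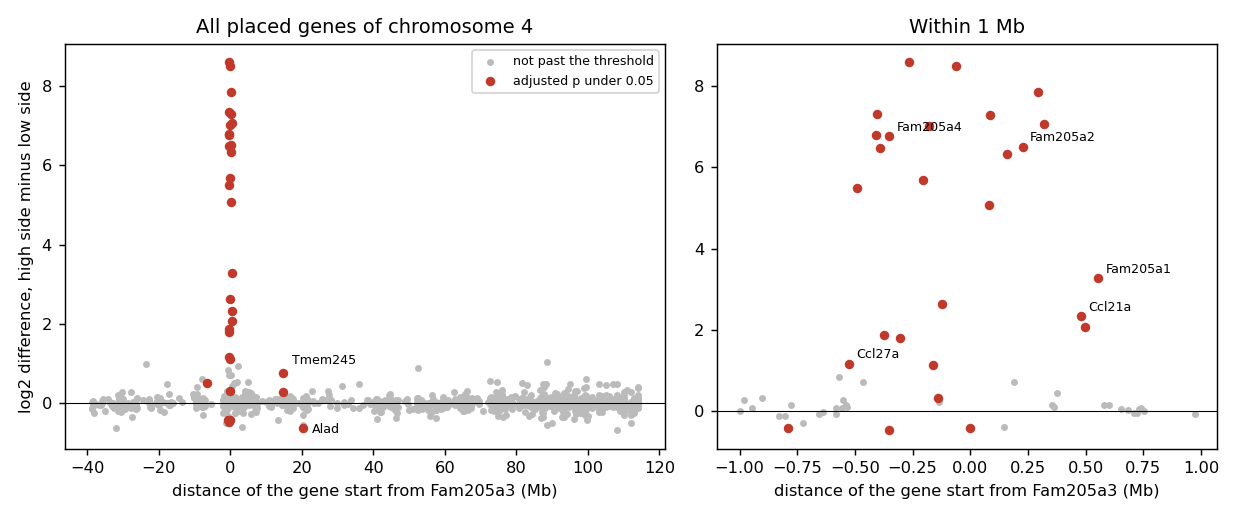
Log2 difference between the sides (high minus low, vertical axis) against the distance of each tested gene's start from that of Fam205a3 in Mb, over chromosome 4 and within 1 Mb. Every point is 1 gene, and red points have an adjusted p under 0.05. Apart from 4 genes further off, the called genes stand within 0.79 Mb.

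For 20 genes, or 0.11% of those tested, the 2 sides did not overlap in any mouse, and all 20 were higher in the high side. They comprised 9 genes within 5 Mb and 11 scaffold genes, or 17 genes in all without the Fam205a copies. The 11 scaffold genes and LOC108169009 were not found in the GENCODE transcripts, so whether they share sequence with Fam205a3 was not checked. LOC108169009, a predicted gene at −0.267 Mb, had 0 to 0.153 CPM in the low side and 10.1 to 47.0 CPM in the high side. Summed over mice it had 16 counts in the low side and 17498 in the high side, which relative to the total counts was 394-fold higher (95% counting interval 243 to 690). Its log2 difference of 8.59 (standard error 0.29) was the largest fitted among the genes tested. On the scaffolds, 4933409K07Rik had 0.0501 to 0.927 CPM in the low side and at least 10.2 CPM in every high mouse, with a log2 difference of 6.55 (standard error 0.24). Most of the other called genes near Fam205a3 or on scaffolds are annotated as predicted genes or pseudogenes. Gm3883, a transcribed pseudogene at 0.159 Mb, had at most 0.818 CPM in the low side and 15.8 to 47.6 CPM in the 33 high mice above 12 CPM, and Gm46857 at 0.079 Mb had at most 0.665 against 7.69 to 22.4 CPM. Gm3893 was scarcer, with at most 0.164 CPM in the low side and 1.1 to 3.26 CPM in the same 33 mice. On scaffolds, LOC100041536 had at most 0.35 in the low side against 15.6 to 40.6 CPM in these 33 mice. LOC100862043 had at most 0.148 against 2.93 to 8.84 CPM. Over all 36 high mice the lowest values of these 2 genes were 7.64 and 2.33 CPM. LOC115489314 had 3 counts over the 13 low mice and 4039 over the 36 high mice, a ratio of 485 relative to the total counts (95% counting interval 166 to 2353). Others overlapped between the sides, such as Ccl19-ps1, a pseudogene of Ccl19, with 0 to 0.598 CPM in the low side and 0.099 to 2.62 CPM in the 33 high mice (log2 difference 1.88, standard error 0.32, adjusted p = 0.000213, edgeR). Gm12394, at 0.496 Mb, had 0.099 to 0.981 CPM in the low side against 0.826 to 4.07 CPM in the 33 high mice. The remaining high mice had 0.341 to 1.11 CPM.

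The ranks of the mice were most like those of Fam205a3 in Fam205a4, Fam205a2, Gm46892, LOC108169009 and LOC100862324. The most opposite ranks were those of Gm39743, Alad, Rps7-ps3, Hdhd3 and Gm42427. As the mice form separate clusters, no coefficient is given for these.

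The mice just above the threshold were unlike the rest of the high side. Mouse 266 of TDP10 + 12 had 9.38 CPM of Fam205a3, and mice 261 and 54 of TDP15 had 9.92 and 11.4 CPM, while the other 33 high mice began at 16.5 CPM and had a median of 21.1 CPM. These 3 mice were singled out after their values had been seen, and what follows describes them without a test. In the 20 genes whose sides did not overlap, their mean was 0.0461 to 0.507 of that of the other high mice, with a median of 0.398. Fam205a2 had 7.59, 7.39 and 8.81 CPM in mice 266, 261 and 54, and LOC108169009 had 10.1, 10.7 and 12.2 CPM.

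In a second set of 11 genes the same 3 mice had at most 0.0946 of the mean of the other high mice, and they were above the low side in few of these genes. They were Gm29801, Gm29804, Gm13304, Gm10591, Gm5859, Ccl21b and Ccl21d near Fam205a3 and Ccl21c, LOC100041504, LOC100041593 and LOC101055676 on scaffolds. Gm29804 had 0.474, 0 and 0.0503 CPM in mice 266, 261 and 54, within the low side's 0 to 0.644 CPM, whereas the other 33 high mice had 17.4 to 47.8 CPM. Gm13304, a copy of the Ccl21 sequence, had 0.0527, 0.0486 and 0.101 CPM against 6.19 to 21.5 CPM in the other high mice. The 11 were chosen as called genes whose sides overlapped in all mice but not once the 3 mice were left out. Their overlap through the 3 mice therefore follows from the choice. In 2 of the 11 genes any of the 3 mice lay above the low side. Levels differed between these genes: Ccl21b had 0.474, 0.876 and 0.101 CPM in mice 266, 261 and 54, and Gm29801 had 0.738 CPM in mouse 266. Ccl21d was scarce throughout and as low as 0.201 CPM in the other high mice. LOC100041599 on a scaffold stood between both sets, with 0.896, 0.73 and 0.755 CPM in mice 266, 261 and 54, above the low side's 0.307 CPM and far below the 11.6 to 32.2 CPM of the other high mice. Of the 41 genes higher near Fam205a3 or on scaffolds, 20 had all 3 mice above the low side, 14 had none above it and 7 were mixed. Those 20 are the genes without overlap, in which every high mouse lies above the low side by definition. All of the 11 genes of the second set were called genes by choice. They also passed the edgeR threshold without the 3 mice, which is no separate support, since they were chosen for their separation without them. With limma-voom only 3 of the 11 passed, against 20 of the 20 genes above, the Fam205a copies included.

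**Figure D3:**
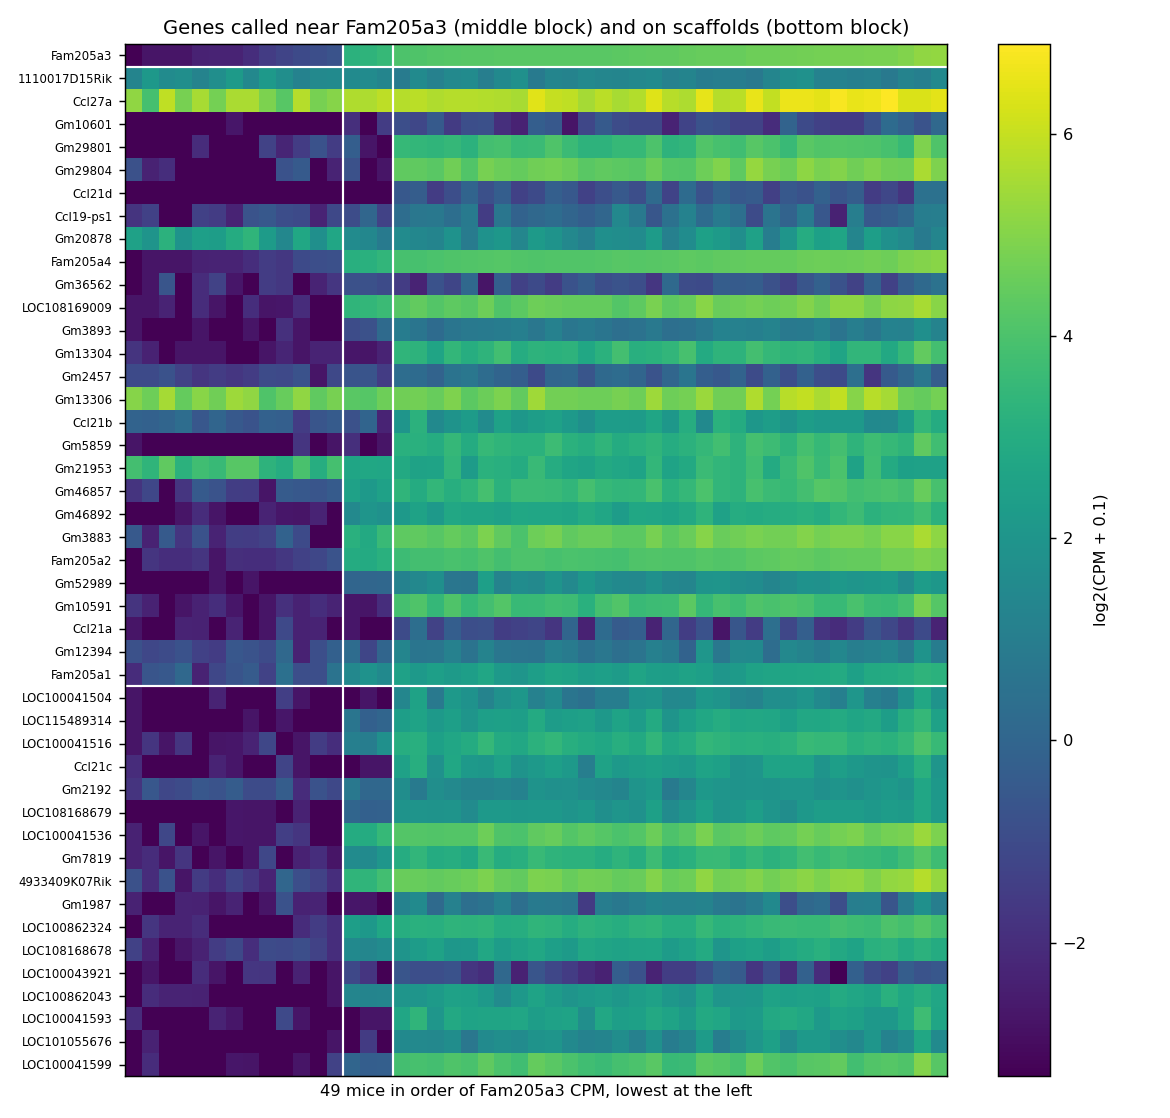
Log2(CPM + 0.1) of Fam205a3 and of the genes called within 5 Mb or on scaffolds (rows, in order of position within each block) in the 49 mice (columns, in order of Fam205a3). White vertical lines bound the 3 mice between 3 and 12 CPM, in which some rows keep an intermediate colour and others are as dark as in the 13 low mice.

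At the other end, 4 bigenic mice stood above the other bigenic mice, though not above all monogenic high mice, which reached 28.6 CPM of Fam205a3. Mice 51 and 130 of TDP10 + 12, 184 of TDP15 and 251 of TDP-PBS had 27.5, 31.3, 36.1 and 37.0 CPM of Fam205a3, against a median of 19.4 CPM in the 19 bigenic mice between 12 and 26 CPM. The value of 26 CPM was set after the data had been seen. In the bigenic mice the medians of Fam205a3 thus ran from 0.175 (6 mice) over 9.92 (3 mice) and 19.4 (19 mice) to 33.7 CPM (4 mice). Those of Fam205a4 ran from 0.16 over 8.85 and 17.8 to 30.7 CPM. Since Fam205a4 shares its sequence with Fam205a3, by which the mice were sorted, this parallel is no separate evidence. Of the 41 genes that were higher near Fam205a3 or on scaffolds, 11 had all 4 of these mice above all 19. The 11 include Fam205a2 and Fam205a4, which share sequence with the gene that chose these mice. The share over all genes tested is not given, so the count is a description only. Over the 41 genes, the ratio of the median of the 4 mice to that of the 19 ranged from 0.496 in Ccl21a to 1.91 in Gm46892. The median ratio was 1.44.

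Among the chemokine genes, Ccl27a (41769467 to 41774225) was abundant and was higher in the high side. Its values were 32.8 to 59.3 CPM (median 48.1) in monogenic low mice and 83.9 to 118 CPM (median 94.6) in monogenic high mice. In bigenic mice they were 14.4 to 28.9 CPM (median 27.4) on the low side and 45.9 to 92.7 CPM (median 53.8) on the high side. Within either genotype the sides did not overlap, but monogenic low and bigenic high mice did. The log2 difference was 1.16 (standard error 0.10, adjusted p = 2.09e-13, edgeR). The 4 bigenic mice with the most Fam205a3 also had the most Ccl27a among bigenic mice, with 92.7, 79.2, 80.0 and 87.7 CPM in mice 51, 130, 184 and 251. The other bigenic mice reached 63.3 CPM. The 3 mice with the least Fam205a3 of the high side had 50.6, 49.4 and 59.1 CPM of Ccl27a in mice 266, 261 and 54, well within the range of the other bigenic high mice.

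Ccl27b shares most of its transcript windows with Gm13306, and its upstream bases at the start compared. It had medians of 52.7 and 64.4 CPM in monogenic low and high mice. In bigenic mice they were 29.9 and 31.4 CPM, and the sides overlapped in both genotypes. Its log2 difference of 0.14 (95% interval 0.03 to 0.26) did not pass the adjustment (adjusted p = 0.699, edgeR). Gm13306 had 36.0 and 49.6 CPM in monogenic low and high mice and 22.5 and 25.1 CPM in bigenic ones, with a log2 difference of 0.31 (standard error 0.07, adjusted p = 0.0274). Gm21953 and Gm20878, which share windows with Ccl27a and overlap the annotated spans of Fam205a3 and Fam205a4, were lower in the high side, by −0.42 and −0.48.

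The Ccl21 genes were counted at low levels. Ccl21b (42173120 to 42256825) had 0.248 to 1.15 CPM in the low side and, leaving out mice 266, 261 and 54, at least 2.73 CPM in the high side, with a log2 difference of 2.63 (standard error 0.30, adjusted p = 6.44e-09, edgeR). Its annotated span contains Gm5859. Ccl21d had 0 counts in all 13 low mice and 391 counts over the 36 high mice, and was at least 47.0-fold higher against a floor of 3 counts over the low side, which covers counting error only. Ccl21c had at most 0.327 CPM in the low side and a median of 4.82 CPM in monogenic high mice. Ccl21a (42772860 to 42773991), with medians of 0.0479 and 0.346 CPM in monogenic low and high mice, stood near the floor on both sides (log2 difference 2.33, adjusted p = 0.00932). Of the 9 tested members of the list of chemokine and cytokine receptor genes on chromosome 4, 5 were higher and 0 lower, where 0.247% of all genes tested were higher. Their median was 1.16 against −0.0012 over all genes tested. Within 1 Mb of Fam205a3, however, 27 of 60 tested genes (45%) were called, so such calls are not particular to this list. Copies in the list share sequence, and whether it differed from its neighbours was not tested.

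The receptor genes of the same stretch did not pass the threshold. Il11ra1, the receptor chain for interleukin-11, had a log2 difference of 0.09 (95% interval −0.01 to 0.19). Il11ra2 had 0.10 (−0.20 to 0.40) and Cntfr, the receptor chain for ciliary neurotrophic factor, −0.04 (−0.15 to 0.08). Ccl19, which shares its receptor with CCL21, had medians of 0.248 and 0.349 CPM on the low and high side and was too low to be tested.

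Some genes further along chromosome 4 went with the sides without separating them. Lingo2, which encodes a neuronal transmembrane protein and lies at −6.60 Mb (35696778 to 36951744), had medians of 21.9 and 29.1 CPM in monogenic low and high mice and 19.6 and 29.7 CPM in bigenic ones. Its log2 difference was 0.51 (standard error 0.10, adjusted p = 0.00112, edgeR), and 6 of 13 low mice lay below every high mouse. Tmem245, a transmembrane protein gene 14.6 Mb beyond Fam205a3 (56876003 to 56947455), had 5.46 to 15.0 CPM in the low side and 8.17 to 27.3 CPM in the high side. It differed by 0.75 (standard error 0.15, adjusted p = 0.00316). Its neighbour Frrs1l (56960136 to 56990391), which encodes a protein of AMPA receptor assembly, differed by 0.28 (standard error 0.06, adjusted p = 0.0195). 1110017D15Rik, at −0.79 Mb, was lower in the high side by −0.42 (standard error 0.10, adjusted p = 0.0305).

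Alad, which encodes the haem synthesis enzyme delta-aminolevulinate dehydratase (62505984 to 62520063, 20.2 Mb beyond Fam205a3), was lower in the high side. Its medians were 59.1 and 37.4 CPM in monogenic low and high mice and 53.1 and 36.6 CPM in bigenic ones, with a log2 difference of −0.62 (standard error 0.13, adjusted p = 0.00839, edgeR). Over the 49 mice its values fell into 3 ranges with gaps between them, which were delimited after the values had been seen. The lowest range, 18.7 to 24.6 CPM, held 11 mice, all of the high side. The middle range, 33.8 to 42.9 CPM, held 4 low and 21 high mice. The upper range, 52.0 to 66.6 CPM, held 9 low and 4 high mice, and 3 of those 4 were mice 266, 261 and 54. The other was mouse 130 of TDP10 + 12, with 55.4 CPM of Alad and 31.3 CPM of Fam205a3, among the highest of all mice.

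Hdhd3, the phosphatase-family gene next to Alad (62499054 to 62502200), had medians of 2.24, 4.91 and 7.19 CPM over the mice of these 3 ranges of Alad. Its own difference between the sides, −0.56 (95% interval −0.91 to −0.21), did not pass the adjustment (adjusted p = 0.397, edgeR). Tmem245 went the opposite way, with medians of 20.3, 14.9 and 8.17 CPM over the same ranges. The mice at the lower end of the high side thus had Fam205a3 of the high side together with Alad and Tmem245 at levels usual on the low side.

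**Figure D4:**
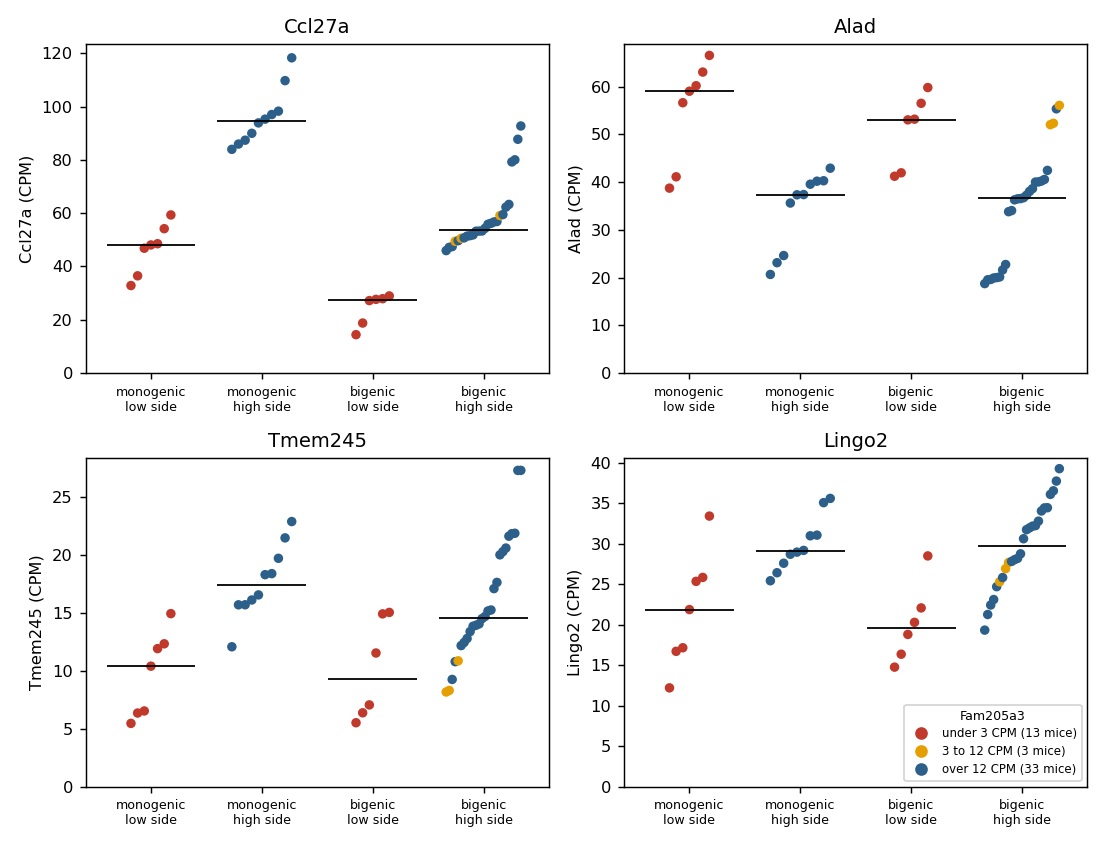
CPM of Ccl27a, Alad, Tmem245 and Lingo2 in each mouse, by genotype and side. Points are mice, black lines are medians, and colours are as for Fam205a3. The sides separate within each genotype for Ccl27a and overlap for the other genes, and Alad falls into 3 ranges.

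Away from chromosome 4 the sides hardly differed. Tubgcp6 on chromosome 15 (89099097 to 89123208), which encodes a component of the gamma-tubulin complex, was higher by 0.15 (standard error 0.04, adjusted p = 0.0405, edgeR). Its medians were 32.4 and 34.9 CPM in monogenic low and high mice and 36.1 and 43.4 CPM in bigenic ones. It was not called with the 4 groups as covariate, without the mouse of each side nearest 3 CPM, without a filter on low counts or within either genotype. Of the 17010 genes on other chromosomes, 1033 had an unadjusted p under 0.05.

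Of the ALS-linked genes of chromosome 4, 3 are described here. None of the 3 passed the test, and their intervals were narrow. Vcp, which encodes a protein segregase and lies 0.685 Mb from Fam205a3, had 121 ± 5.23 CPM (SD, n = 13) on the low side and 124 ± 8.62 CPM (SD, n = 36) on the high side. Its log2 difference was 0.02 (95% interval −0.04 to 0.07). C9orf72 had −0.06 (−0.17 to 0.05) and Tardbp, the mouse gene of TDP-43 on the far part of the chromosome, −0.01 (−0.09 to 0.07). The smallest adjusted p was 0.832 (C9orf72, edgeR).

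Tlr4, the receptor for bacterial lipopolysaccharide, which is mutated in C3H/HeJ mice, lies 24.5 Mb from Fam205a3. It had 1.22 ± 0.592 CPM (SD, n = 13) on the low side and 1.54 ± 0.725 CPM (SD, n = 36) on the high side, with a log2 difference of 0.01 (95% interval −0.33 to 0.34) once genotype was in the fit. Of the 14 immune genes of chromosome 4 listed, 12 were tested and 0 were called, where 0.269% of all genes were. Cd72, a B cell inhibitory receptor gene 1.15 Mb away, had the largest difference, 0.50 (0.05 to 0.96), with an unadjusted p of 0.0306 and an adjusted p of 0.722. Among genes known to carry strain variants, Nnt had −0.09 (−0.23 to 0.05), Gabra2 −0.21 (−0.44 to 0.01) and Wdfy1 −0.09 (−0.26 to 0.08), and 0 of 4 tested were called. Pde6b and Nlrp12 were too low to be tested.

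Of the 113 tested members of the other 16 lists, 0 were called in either direction, and at the share of 0.269% over all genes few calls or none would fall among them. Their intervals had a median 95% half-width of 0.31. The median difference was 0.02 for 8 homeostatic microglia genes, 0.05 for 10 genes of disease-associated microglia, 0.18 for 12 interferon-stimulated genes, 0.32 for 8 chemokines and 0.13 for 8 genes of reactive astrocytes. It was 0.07 for 7 genes of neurofilaments and axon damage and 0.01 for 8 transcripts targeted by TDP-43. Medians were −0.52 for 6 choroid plexus markers, −0.36 for 6 olfactory bulb markers, −0.21 for 6 striatal markers and 0.50 for 4 red blood cell genes, and the part of these tissues in any result was not tested. In the remaining lists the medians lay at −0.0037 for oligodendrocytes, 0.06 for cortical neurons, 0.02 for endothelium, −0.06 for meninges and fibroblasts and −0.15 for 2 T and B cell genes.

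**Figure D5:**
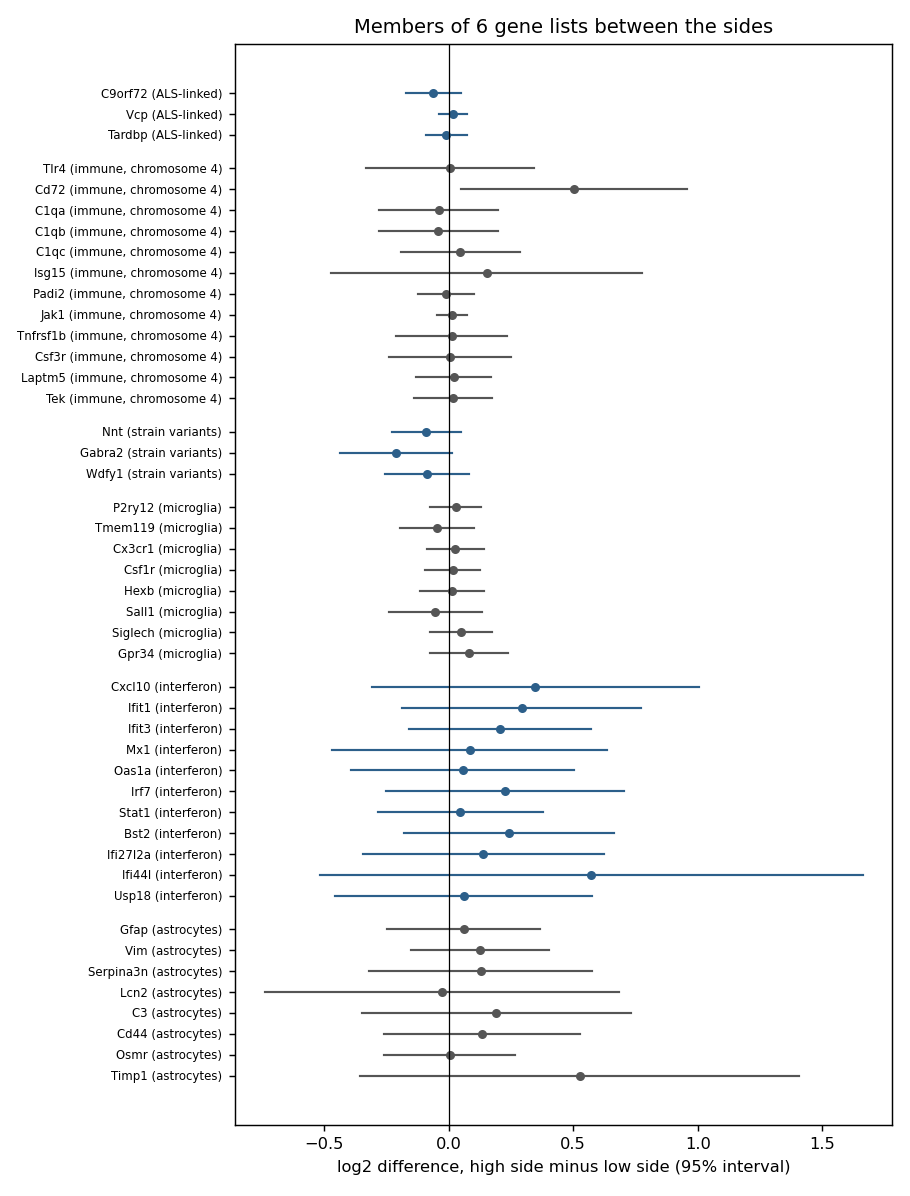
Log2 difference between the sides (high minus low) with its 95% interval for each tested member of 6 gene lists. A gene on several lists is drawn once, and no member passed the adjusted threshold.

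The differences were next fitted within each genotype, in groups of mice that share no animal. Within the 32 bigenic mice 42 genes were called (0.231%), and within the 17 monogenic mice 42 were called as well (0.231%). Of the 42 genes called in bigenic mice, 35 were called again with the same sign in monogenic mice, and 40 had the same sign. These counts hold Fam205a1, Fam205a2 and Fam205a4, which share sequence with the gene that chose the sides and are no separate evidence. The other genes called again lie near Fam205a3 or on scaffolds. Several share sequence with each other and others were not checked for it, so the repeated calls are not independent of each other. Ccl27a differed by 1.30 in bigenic and 1.01 in monogenic mice. Alad had −0.53 (adjusted p = 0.486, edgeR) in bigenic and −0.71 (adjusted p = 0.033) in monogenic mice, and Tmem245 had 0.68 (adjusted p = 0.44) and 0.84 (adjusted p = 0.0282). Lingo2 was called in bigenic mice (0.58) and not in monogenic mice (0.43), and Frrs1l in neither (adjusted p = 0.468 and 0.303, edgeR). Sex was uneven over the sides in monogenic mice, with 6 of 7 low and 4 of 10 high mice female. With sex in the monogenic fit the difference of Alad was −0.73 (adjusted p = 0.208, edgeR) and that of Tmem245 0.84 (adjusted p = 0.083), so that neither was called, while Ccl27a kept its call (0.98, adjusted p = 4.96e-05). In the fit of all 49 mice with sex and genotype, Alad, Tmem245, Lingo2 and Frrs1l were called, with an adjusted p of 0.0103, 0.0039, 0.00132 and 0.0166 (edgeR). Tested directly, the difference between the sides depended on genotype for 0 of 18219 genes (0%) with edgeR, where 1128 genes had an unadjusted p under 0.05. The interaction p was smallest for Ubap2 (log2 difference of differences 0.28), followed by Cox17 (−0.46), both with an adjusted p of 0.635. Of the 49 called genes, 3 had an unadjusted interaction p under 0.05, the smallest that of Gm2457 at 0.008.

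The unequal share of low mice bears on the comparison of genotypes for these genes. With the side as a term, 52.8% of the 18219 genes differed between bigenic and monogenic mice, and 20 of the 46 called genes other than Fam205a copies did, 2 higher and 18 lower in bigenic mice. Without it, 54.3% of all genes and 8 of the 46 were called, with 7 genes called both ways. The sign of the genotype difference was not the same in the 2 fits for 20 of the 46. Their median was −0.38 with the side and 0.05 without it. Ccl27a was lower in bigenic mice by −0.86 with the side and −0.61 without it, and Ccl27b by −1.04 and −1.01. The share called among the 46 lay below that of all genes in both fits. Without mice 266, 261 and 54, the number with the side was 22 of 46 and the median moved to −0.26.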

How the data were processed

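The authors deposited 1 table of raw read counts per gene for 49 mouse neocortex libraries. Their processing notes name HISAT, HISAT2, Bowtie, Bowtie2 and RSEM and the build mm10. The counts were whole numbers and not normalized, and the strand setting of the counting is not given in the sources used here. All 45252 symbols matched RefSeq genes of GRCm38.p6.

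Genes with too few counts were removed by filterByExpr, counts were scaled by TMM, and side and transgene genotype were fitted in edgeR 4.0.16 (quasi-likelihood F-test, R 4.3.3) over all genes, with adjusted p-values over the whole table. Fam205a3 was left out of the counts of tested genes. Fits within 1 genotype kept the same genes, since a filter on fewer mice would drop genes absent from 1 side. Shares were compared with Fisher's exact test. Replicates were separate mice. Alternatives were DESeq2 1.42.0, limma-voom (limma 3.58.1), DESeq2 size factors, no filter, sex or the 4 groups as covariates, other thresholds and fits without particular mice. Sequences came from RefSeq and GENCODE transcripts of the same build, with figures by matplotlib 3.10.9. The fits were tested on simulated data.

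Named were the members of the chromosome 4 and strain variant lists, any called member of other lists, called genes with the smallest p (15 within 20 Mb of Fam205a3, 10 on the rest of chromosome 4 and 10 elsewhere), the 3 smallest interaction p, the 5 genes most like and the 5 most opposite to Fam205a3 in rank, and up to 20 genes without overlap. Hdhd3's values over the ranges of Alad, the scarcer copies and the 3 and 4 single mice were chosen after their values were seen. The members and lists were chosen with earlier results of these data known. Some results covered by the naming rule are not reported here.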

Additional observations from a re-analysis of the deposited data

Results flagged for a closer look

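In 54 checks of groups of 4 to 10 mice, over 18 genes, 2 single mice stood far from the rest of their group, and chance gives about 1 in 20. Among the 6 bigenic mice of the low side, mouse 26 of TDP-PBS had 0.382 CPM of Ccl21a, against 0.1 CPM in the next. Among the 7 monogenic mice of the low side, mouse 322 had 4.66 CPM of 1110017D15Rik, against 2.95 CPM in the next.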

How the results depend on the processing

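The total of 49 genes was 39 with limma-voom, 54 with DESeq2 and 76 (51 higher, 25 lower) without a filter on low counts. From 5 to 20 Mb, 1 gene was called in bigenic mice instead of 3. Beyond 20 Mb on chromosome 4 there were 2 without a filter and 0 in bigenic mice instead of 1. On other chromosomes the single call became 23 (1 higher, 22 lower) without a filter, 5 with DESeq2, 2 in bigenic mice, 3 in monogenic mice and 0 without the mouse of each side nearest 3 CPM, and the cause was not tested. Over the 49 called genes and 12 alternatives, calls and directions were kept 550 times, calls were lost 38 times and 0 directions reversed. The 12 include the thresholds of 1.5 and 6 CPM, which gave the same sides and so could only keep every call. With limma-voom 10 calls were lost, those of Ccl21a, Ccl21b, Ccl21c, Gm10591, Gm13304, Gm1987, Gm29801, Gm29804, Gm5859 and LOC100041593. In bigenic mice the 9 lost were Alad, Ccl21a, Frrs1l, Gm13306, Gm20878, Gm21953, Gm36562, Tmem245 and Tubgcp6. In monogenic mice 11 were lost, 1110017D15Rik, Ccl19-ps1, Frrs1l, Gm13306, Gm20878, Gm21953, Gm2457, Gm36562, Lingo2, LOC100043921 and Tubgcp6, and 14 with sex in that fit, adding Alad, Ccl21a and Tmem245. Gm20878 also lost its call without a filter, with the 4 groups, with sex and without mice 266, 261 and 54 (adjusted p = 0.070, edgeR), Tubgcp6 without a filter, with the 4 groups and without the nearest mice, and 1110017D15Rik without a filter. Signs reversed only in genes that were not called by the reported fit. In bigenic mice Il11ra2 had −0.21, Cntfr 0.089, C1qb 0.040 and Jak1 −0.0078. In monogenic mice Tardbp had 0.038, Tlr4 −0.19, Isg15 −0.13, Padi2 0.030, Csf3r −0.095, Laptm5 −0.084 and Tek −0.081. With limma-voom C1qb had 0.011 and Tnfrsf1b −0.010. Without the nearest mice Tnfrsf1b had −0.022 and Csf3r −0.0057, and without mice 266, 261 and 54 Tlr4 had −0.028 and Csf3r −0.016. The fits without these 3 mice, the counts without Fam205a copies, the genotype fits without the side and the gene filter within 1 genotype were chosen after seeing the data. No paired analysis was possible because every mouse is a separate animal. At this depth, genes under about 0.15 CPM rest on 3 counts or fewer.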
